A study of Homo sapiens with 8 samples.

Results

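Osteopontin, CD44, aminopeptidase N, CD24, ALCAM, CD47, prominin-1 and the transcription factor SOX9 are used to mark stem-like cells in hepatocellular carcinoma. The 8 genes SPP1, CD44, ANPEP, CD24, ALCAM, CD47, PROM1 and SOX9 that encode them were taken by symbol from a table of gene expression in MHCC-97H and MHCC-97L cells. Each symbol was found, so the set holds 8 of the 18902 genes of the table. CD44, ANPEP, CD24, ALCAM, CD47 and PROM1 encode proteins of the cell surface, whereas SPP1 encodes a secreted protein and SOX9 a nuclear one. The rule used gene names and no measured values, but the genes were chosen with earlier results of these data known.

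MHCC-97H and MHCC-97L are human hepatocellular carcinoma lines of high and low metastatic potential. The Flag-OGT libraries came from cells with a stably integrated lentiviral construct for full-length human OGT, the O-GlcNAc transferase, with a C-terminal Flag tag, selected by its neomycin resistance. The series addresses OGT and ZNF263, a zinc-finger protein, on chromatin, and its chromatin immunoprecipitation libraries were not analysed here. The 4 groups of 2 libraries each were MHCC-97H Flag-OGT, MHCC-97H control, MHCC-97L Flag-OGT and MHCC-97L control, all grown in DMEM with fetal calf serum. The controls have no genotype label, and neither their vector nor the number of clones behind the selected cells is stated in the sources used here. Nothing states that the RNA libraries of a group came from separate cultures, so the spread behind each p-value is that of these libraries alone and may be technical.

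CD44 is a transmembrane receptor for hyaluronan that also binds osteopontin, and its transcripts are spliced into a standard and several variant forms. CD24 is a small glycosylphosphatidylinositol-anchored glycoprotein that binds Siglec-10, and CD47 binds SIRPA on phagocytes and restrains engulfment. ANPEP, known as CD13, is a membrane aminopeptidase, PROM1 is CD133, and ALCAM is CD166, an adhesion molecule. SOX9 marks biliary and progenitor cells of the liver, where SPP1 is likewise a product of bile duct cells. In liver tumours cells that carry these markers have been studied for self-renewal, drug resistance and spread.

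The Flag-OGT libraries stood apart from the controls of their own line. Libraries were correlated by log2(FPKM + 1) over the 13553 genes with a mean of at least 0.5 FPKM. Flag-OGT and control libraries of 1 line had Pearson's r between 0.725 and 0.753. Libraries of the same state in the other line had r between 0.957 and 0.963, and replicates between 0.997 and 0.999. FPKM is the number of fragments scaled to transcript length and to library size, so levels of different genes may be compared. OGT had 59.0 and 58.4 FPKM in MHCC-97H Flag-OGT and 32.5 and 34.2 FPKM in MHCC-97H control, a log2 fold change of 0.80 ± 0.06 (SE; limma, adjusted p = 3.0e-07). In MHCC-97L it had 51.0 and 54.5 FPKM with Flag-OGT and 45.7 and 43.9 FPKM in control (0.23 ± 0.06, adjusted p = 3.4e-03), and this gain was lost by median-of-ratios scaling (0.05, adjusted p = 0.396) and with a common library sum (0.11, adjusted p = 0.0986). Summed over 15 hepatocyte markers, the level was 2.54 to 3.70 FPKM in MHCC-97H Flag-OGT against 199.8 to 208.0 in control, and 3.09 to 6.54 in MHCC-97L Flag-OGT against 293.8 to 302.9 in control. HNF4A, a defining hepatocyte transcription factor, had 0.03 and 0.04 FPKM in MHCC-97H Flag-OGT and 14.6 in both controls, and 0.02 and 0.01 FPKM in MHCC-97L Flag-OGT against 13.9 and 13.4 in control. TTR was the hepatocyte marker listed at 0 in all Flag-OGT libraries. Summed over 10 genes of the nephric lineage, the level was 290.8 to 307.3 FPKM in MHCC-97H Flag-OGT against 20.4 to 22.4 in control, and 353.7 to 386.9 in MHCC-97L Flag-OGT against 28.4 to 29.8 in control. CITED1 made up most of the Flag-OGT sums, with 241 and 227 FPKM in MHCC-97H and 350 and 316 in MHCC-97L. Not all of these genes were higher with Flag-OGT, and PAX8 and OSR1 were lower in both lines. Whether the RNA labelled Flag-OGT came from the named lines, and what part this contrast has in the results on the marker genes, was not tested. The fold changes between the control lines come from control values alone, while their spread estimate and filter draw on all libraries. A fit of the controls alone called 7983 genes between the lines, against 8859.

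The promoters of 6 marker genes are shown, those of the genes that fell furthest and of genes that stayed expressed, so that their sequence can be read beside the values. RefSeq (GRCh38.p14) annotates starts for 7 of the 8 genes, 13 in all, and SOX9 was not matched. The 250 bases before the first listed start are given 5′ to 3′ on the strand of the gene. Capitals mark GGAGGA or its reverse complement TCCTCC, searched on both strands with overlaps counted. This purine-rich word is the core of the motif known for ZNF263. A match is a description of the letters and not a binding site.
SPP1: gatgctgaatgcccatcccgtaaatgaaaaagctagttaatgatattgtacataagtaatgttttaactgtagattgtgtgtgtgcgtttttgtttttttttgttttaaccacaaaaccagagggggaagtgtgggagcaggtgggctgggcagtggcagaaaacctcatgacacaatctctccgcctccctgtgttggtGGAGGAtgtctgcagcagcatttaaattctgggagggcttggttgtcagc
CD44: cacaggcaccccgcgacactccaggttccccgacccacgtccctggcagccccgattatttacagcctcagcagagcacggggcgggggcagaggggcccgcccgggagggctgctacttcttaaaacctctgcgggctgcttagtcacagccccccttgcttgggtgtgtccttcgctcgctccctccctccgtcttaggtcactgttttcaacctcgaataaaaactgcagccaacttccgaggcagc
ANPEP: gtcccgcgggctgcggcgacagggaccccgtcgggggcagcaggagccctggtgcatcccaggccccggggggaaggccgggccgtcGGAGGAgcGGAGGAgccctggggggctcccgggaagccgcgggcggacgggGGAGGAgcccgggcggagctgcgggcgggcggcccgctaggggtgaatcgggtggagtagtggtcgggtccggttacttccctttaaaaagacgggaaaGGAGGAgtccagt
CD24: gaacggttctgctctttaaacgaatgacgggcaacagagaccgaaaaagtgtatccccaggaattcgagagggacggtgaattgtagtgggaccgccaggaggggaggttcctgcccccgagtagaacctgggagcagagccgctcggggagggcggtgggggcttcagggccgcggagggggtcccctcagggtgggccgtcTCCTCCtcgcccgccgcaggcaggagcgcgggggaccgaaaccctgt
ALCAM: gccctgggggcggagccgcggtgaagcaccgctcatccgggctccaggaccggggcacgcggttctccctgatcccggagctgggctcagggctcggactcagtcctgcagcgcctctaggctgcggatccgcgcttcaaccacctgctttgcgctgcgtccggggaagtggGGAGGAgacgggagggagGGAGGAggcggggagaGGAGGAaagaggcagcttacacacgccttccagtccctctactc
CD47: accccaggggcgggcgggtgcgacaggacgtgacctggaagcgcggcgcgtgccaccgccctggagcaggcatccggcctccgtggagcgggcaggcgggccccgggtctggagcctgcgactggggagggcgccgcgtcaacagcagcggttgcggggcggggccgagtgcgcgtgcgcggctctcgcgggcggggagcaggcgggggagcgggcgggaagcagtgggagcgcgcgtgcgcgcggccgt

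These windows lie at chr4:87975464-87975713 on the plus strand for SPP1, chr11:35138921-35139170 on the plus strand for CD44, chr15:89814853-89815102 on the minus strand for ANPEP, chr6:106975628-106975877 on the minus strand for CD24, chr3:105366659-105366908 on the plus strand for ALCAM and chr3:108091032-108091281 on the minus strand for CD47. The word occurred 4 times before ANPEP, 3 times before ALCAM, 1 time before SPP1 and 1 time before CD24. It did not occur before CD44 or CD47. The word was present in 7 of the 13 windows of the marker genes and in 31.8% of the 34788 distinct windows of all genes. The 13 windows are not independent. CD24 had 3 starts and ANPEP 2, all with the word, and the first and second CD24 windows overlap and share 1 copy. PROM1 had 4 starts, all without the word. Other words searched were GGGCGG, in 7 of the 13 windows and 42.6% of all windows, and TGANTCA (N is any base), in 1 and 6.59%. TATAAA was in 0 of the 13 and in 10.8% of all windows. These shares were not compared by a test. The SPP1 window held 3 CG dinucleotides, more than 22.9% of all windows, and the CD47 window held 39, more than 97.3%, against a median of 11. CD44 held 15, ANPEP 26, and CD24 and ALCAM 20 each. The window of the second ANPEP start, not shown, held the word 1 time and 9 CG dinucleotides. Which start these cells used is not known here. The genes that fell most thus had windows with and without the word, and with few and many CG dinucleotides.

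The 8 genes were led by SPP1 and CD44 in MHCC-97H control libraries and by SPP1 and CD24 in MHCC-97L control libraries. In Flag-OGT libraries of both lines they were led by CD47 and ALCAM. The summed level of the 8 genes was 17.6 and 17.9 FPKM in MHCC-97H Flag-OGT against 345 and 356 FPKM in MHCC-97H control. In MHCC-97L it was 19.1 FPKM in both Flag-OGT libraries against 556 FPKM in both controls. SPP1 made up 0.170% and 0.335% of the sum in MHCC-97H Flag-OGT against 43.8% and 43.4% in control, and 0.786% and 0.577% in MHCC-97L Flag-OGT against 61.7% and 61.9% in control. CD47 made up 37.9% and 36.5% in MHCC-97H Flag-OGT against 2.57% and 2.96% in control, and 50% and 49.4% in MHCC-97L Flag-OGT against 1.41% and 1.26% in control. In these bulk libraries fewer cells of a type and less RNA per cell cannot be told apart.

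**Figure D1:**
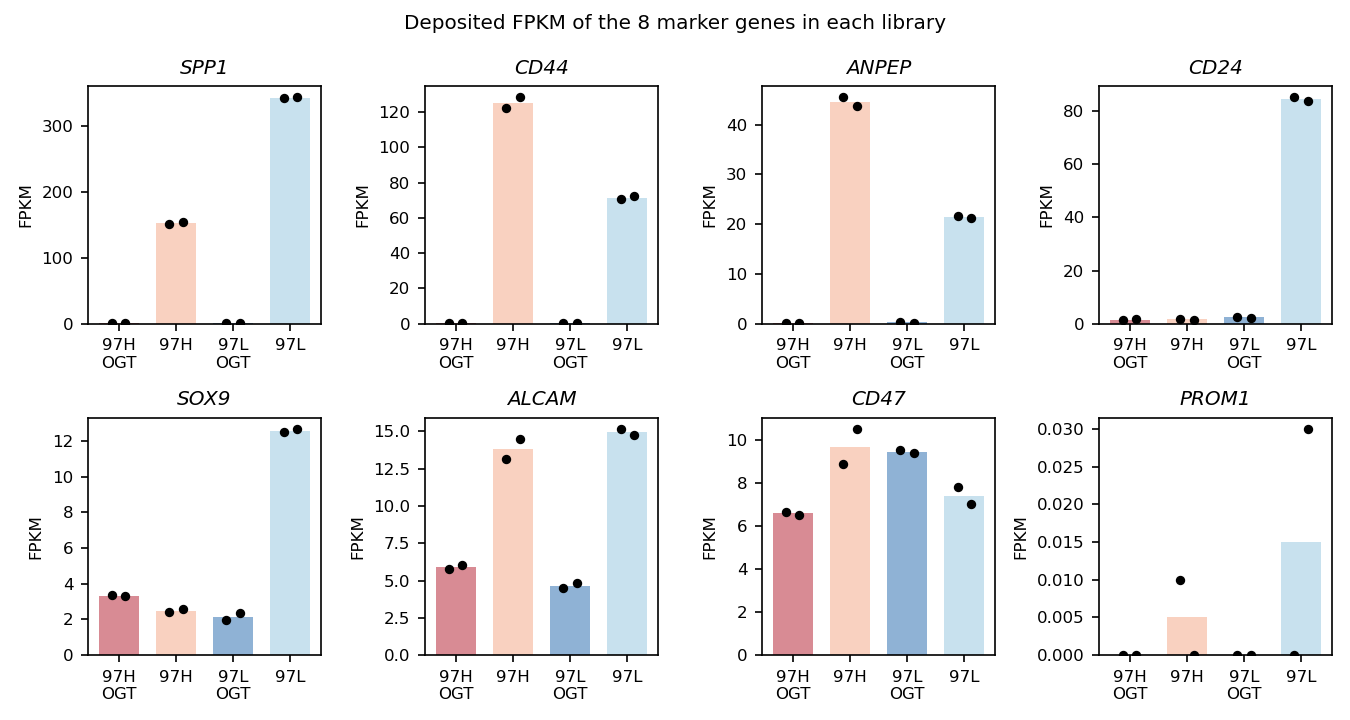
Deposited FPKM (y axis, linear from 0, a scale of its own in each panel) of the 8 marker genes in MHCC-97H Flag-OGT, MHCC-97H control, MHCC-97L Flag-OGT and MHCC-97L control; points are libraries and bars their mean (n = 2). SPP1, CD44 and ANPEP stood near 0 in all Flag-OGT libraries, CD24 was high in the MHCC-97L controls alone, and CD47 stayed between 6.54 and 10.5 FPKM throughout.

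SPP1, the secreted ligand of CD44 and of several integrins, fell furthest in both lines. It had 0.03 and 0.06 FPKM in MHCC-97H Flag-OGT against 151 and 155 FPKM in control, and 0.15 and 0.11 FPKM in MHCC-97L Flag-OGT against 343 and 344 FPKM in control. No Flag-OGT library came near a control, and the MHCC-97L controls were the highest libraries. With values this low in 1 group the fold change depends on the added constant, and changes here are on the log2(FPKM + 1) scale, which understates those of genes with low levels. On it SPP1 changed by -7.20 ± 0.06 in MHCC-97H (SE; limma, adjusted p = 2.5e-13) and by -8.25 ± 0.06 in MHCC-97L (adjusted p = 1.4e-13). With 0.1 FPKM added in place of 1 the changes were -10.05 and -10.55. Of the 13553 genes tested, 35 had a lower log2 fold change than SPP1 in MHCC-97H and 16 in MHCC-97L. In rank, SPP1 lay above 97.3% to 97.4% of all genes in MHCC-97H control and above 98.7% in MHCC-97L control, and above only 14.5% to 17.9% in MHCC-97H Flag-OGT and 19.9% to 22.1% in MHCC-97L Flag-OGT.

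CD44, the receptor for hyaluronan and osteopontin, fell in both lines as well. It had 0.27 and 0.23 FPKM in MHCC-97H Flag-OGT against 123 and 128 FPKM in control. In MHCC-97L it had 0.18 and 0.04 FPKM with Flag-OGT against 70.5 and 72.3 FPKM in control. The groups did not overlap in either line, and here the MHCC-97H controls were the highest. The log2 fold change was -6.66 ± 0.07 in MHCC-97H (SE; limma, adjusted p = 9.7e-13) and -6.03 ± 0.07 in MHCC-97L (adjusted p = 1.6e-12), and 45 and 72 of all tested genes had a lower one. The table gives 1 value for the gene, so standard and variant forms of CD44 were not separated.

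ANPEP, the membrane aminopeptidase, had 0.17 and 0.09 FPKM in MHCC-97H Flag-OGT against 45.5 and 43.6 FPKM in control. It had 0.31 and 0.16 FPKM in MHCC-97L Flag-OGT against 21.6 and 21.2 FPKM in control. All Flag-OGT libraries lay far below all controls, and the MHCC-97H controls were above those of MHCC-97L. The log2 fold change was -5.33 ± 0.08 in MHCC-97H (SE; limma, adjusted p = 3.6e-12) and -4.19 ± 0.08 in MHCC-97L (adjusted p = 1.7e-11). SPP1, CD44 and ANPEP passed the expression filter only through the control groups, so that they differed follows in part from the filter.

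CD24 behaved differently in the lines. It had 1.36 and 1.62 FPKM in MHCC-97H Flag-OGT and 1.67 and 1.38 FPKM in MHCC-97H control, and these libraries overlapped. In MHCC-97L it had 2.48 and 2.19 FPKM with Flag-OGT against 85.3 and 84.0 FPKM in control, which were the only high libraries. The log2 fold change was -0.02 in MHCC-97H, with a 95% interval from -0.21 to 0.17 (limma, adjusted p = 0.837), and -4.68 ± 0.09 in MHCC-97L (SE; adjusted p = 1.4e-11). Quantile normalization called a fall of CD24 in MHCC-97H (-0.32, adjusted p = 7.1e-03). CD24 has 5 annotated pseudogenes of like sequence in RefSeq, and how shared reads were assigned is not stated, so its level is uncertain.

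SOX9, a transcription factor of biliary and progenitor cells, also moved in unlike ways. It had 3.34 and 3.33 FPKM in MHCC-97H Flag-OGT against 2.39 and 2.60 FPKM in control, and 1.96 and 2.33 FPKM in MHCC-97L Flag-OGT against 12.5 and 12.7 FPKM in control. The groups did not overlap in either line, with the MHCC-97L controls the highest. SOX9 rose by 0.31 ± 0.08 on the log2 scale in MHCC-97H (SE; limma, adjusted p = 3.4e-03), a call lost under quantile normalization (0.11, adjusted p = 0.163), and changed by -2.11 ± 0.08 in MHCC-97L (adjusted p = 2.0e-09). The median of all tested genes lay at 0.15 in MHCC-97H and 0.19 in MHCC-97L, so the rise of SOX9 exceeded the median gene by little, and 43.4% of tested genes had a higher log2 fold change.

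ALCAM, the adhesion molecule CD166, fell in both lines but stayed expressed. It had 5.78 and 6.03 FPKM in MHCC-97H Flag-OGT against 13.1 and 14.5 FPKM in control. In MHCC-97L it had 4.47 and 4.82 FPKM with Flag-OGT against 15.2 and 14.8 FPKM in control. The controls of both lines lay at similar levels, above every Flag-OGT library. The log2 fold change was -1.10 ± 0.07 in MHCC-97H (SE; limma, adjusted p = 1.3e-07) and -1.50 ± 0.07 in MHCC-97L (adjusted p = 1.3e-08), and 14.3% and 10.6% of tested genes had a lower one.

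CD47, the ligand of SIRPA, moved by little and in opposite directions in the lines. It had 6.68 and 6.54 FPKM in MHCC-97H Flag-OGT against 8.89 and 10.5 FPKM in control, and 9.54 and 9.42 FPKM in MHCC-97L Flag-OGT against 7.84 and 7.02 FPKM in control. The groups did not overlap within a line, while the ranges of MHCC-97H control and MHCC-97L Flag-OGT did. CD47 fell by 0.49 ± 0.08 on the log2 scale in MHCC-97H (SE; limma, adjusted p = 3.2e-04) and rose by 0.32 ± 0.08 in MHCC-97L (adjusted p = 5.5e-03). The rise was not called by median-of-ratios scaling (0.15, adjusted p = 0.104) or without the second MHCC-97L control library (0.25, adjusted p = 0.0533), and 44.4% of tested genes had a higher log2 fold change.

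PROM1, which encodes CD133, was not measurably expressed. It was listed at 0 in both libraries of MHCC-97H Flag-OGT and of MHCC-97L Flag-OGT, at 0.01 and 0 FPKM in MHCC-97H control, and at 0 and 0.03 FPKM in MHCC-97L control. The smallest value above 0 in every library was 0.01, the rounding step of the table, so neither a difference nor absence could be read from these values. PROM1 missed the filter of a mean of at least 0.5 FPKM and was not tested.

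Of the 7 marker genes tested, 1 rose, 5 fell and 1 was not called in MHCC-97H, where 84.6% of the 13553 tested genes were called, 48.2% as higher and 36.3% as lower. In MHCC-97L 1 rose and 6 fell, where 84.8% of tested genes were called, 50.1% as higher and 34.7% as lower. A call by itself therefore set the marker genes apart little, and the size of the change and its direction carry the description. These counts include SPP1, CD44 and ANPEP, which the filter admitted through the controls. The 4 genes at or above the filter in every group were CD24, SOX9, ALCAM and CD47.

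**Figure D2:**
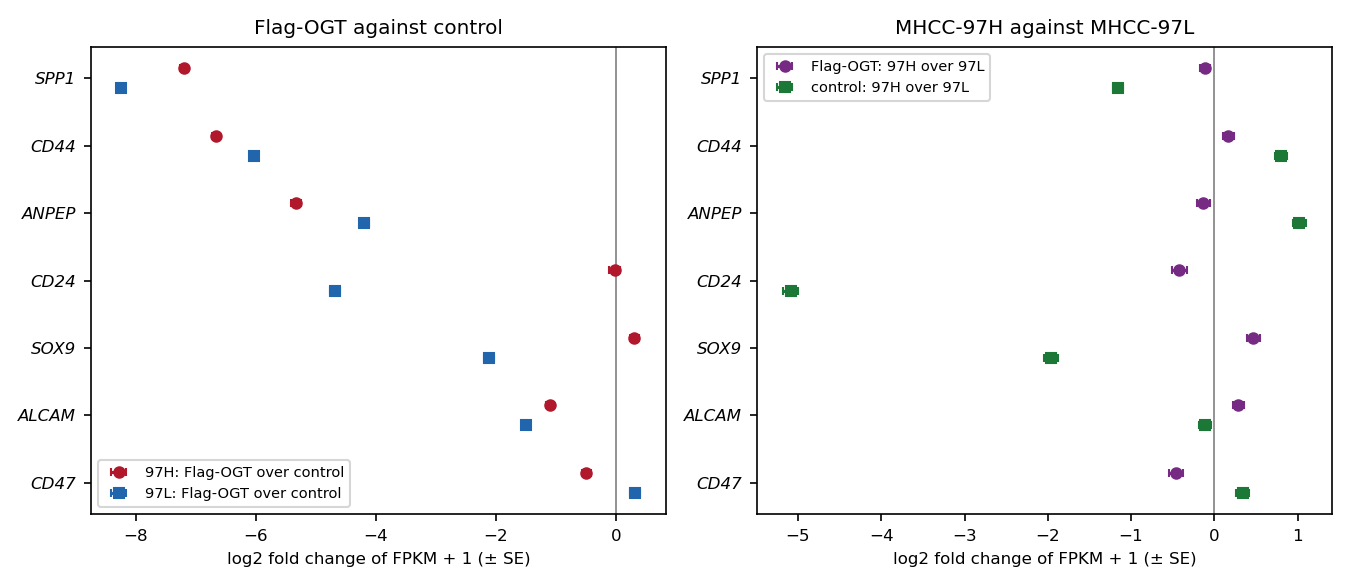
Fold changes on the log2(FPKM + 1) scale (x axis, ± SE) of the 7 tested marker genes, at left Flag-OGT over control in MHCC-97H (circles) and MHCC-97L (squares), at right MHCC-97H over MHCC-97L in Flag-OGT (circles) and control (squares) libraries. The changes with Flag-OGT ran from -8.25 to 0.32, and the differences between lines from -5.09 to 1.02 in controls and from -0.46 to 0.47 in Flag-OGT libraries, where the added 1 FPKM shrinks the gaps of SPP1, CD44 and ANPEP.

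The change with Flag-OGT differed between the lines for all 7 tested genes, where 63.3% of all tested genes differed, 33.9% with a positive and 29.4% with a negative difference. The difference, the change in MHCC-97H minus that in MHCC-97L, was 4.66 ± 0.12 for CD24 (SE; limma, adjusted p = 8.5e-09), and 7 of all tested genes had a higher one. It was 2.42 ± 0.11 for SOX9 (adjusted p = 1.5e-07), exceeded by 118 genes. CD47, which moved in opposite directions, had a difference of -0.81 ± 0.12 (adjusted p = 2.7e-04). Among the genes that fell in both lines, SPP1 differed by 1.05 ± 0.08 (adjusted p = 3.7e-06), ALCAM by 0.40 ± 0.10 (adjusted p = 5.6e-03) and ANPEP by -1.15 ± 0.11 (adjusted p = 1.7e-05). CD44 differed by -0.63 ± 0.10 (adjusted p = 5.5e-04), but by 0.01 (adjusted p = 0.988) with 0.1 FPKM added in place of 1, so that its difference rests on the constant. SPP1, CD44 and ANPEP passed the filter only through the controls and stood near 0 in the Flag-OGT libraries of both lines. On this scale their differences therefore largely restate the gaps between the controls, which were -1.16, 0.80 and 1.02 for MHCC-97H over MHCC-97L. For CD24 and SOX9 the gaps between the controls, -5.09 and -1.96, likewise exceeded in size those between the Flag-OGT groups, -0.42 and 0.47. CD24 already stood at 1.67 and 1.38 FPKM in MHCC-97H control, so that on this scale it could fall by little there.

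**Figure D3:**
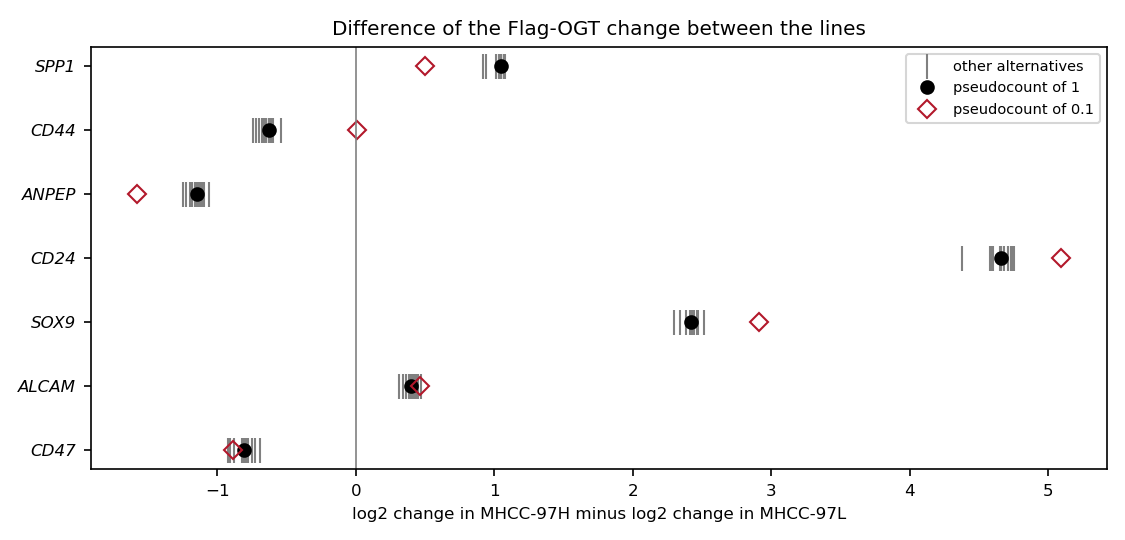
Difference of the change with Flag-OGT between the lines, as the log2 change in MHCC-97H minus that in MHCC-97L (x axis), for the 7 tested marker genes; filled circles add 1 FPKM, open diamonds 0.1 FPKM, and ticks are the other alternatives. CD44 moved from -0.63 to 0.01 with the smaller constant, and the other 6 genes kept their sign in every alternative run.

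Between the control lines, CD24 separated the lines most. The controls of MHCC-97H had 1.67 and 1.38 FPKM against 85.3 and 84.0 FPKM in those of MHCC-97L, a log2 fold change of -5.09 ± 0.09 (SE; limma, adjusted p = 3.9e-10), and 2 of 13553 genes had a lower one. SOX9 (-1.96 ± 0.08, adjusted p = 3.8e-08) and SPP1 (-1.16 ± 0.06, adjusted p = 1.5e-07) were also lower in MHCC-97H control. ANPEP (1.02 ± 0.08, adjusted p = 2.8e-06) and CD44 (0.80 ± 0.07, adjusted p = 9.4e-06) were higher there. CD47 was higher by 0.34 ± 0.08 (adjusted p = 5.2e-03), a call lost without the second MHCC-97L control library (0.27, adjusted p = 0.0504) and in a fit of the control libraries alone (0.34, adjusted p = 0.0539). ALCAM was not called (-0.11, 95% interval from -0.27 to 0.05, adjusted p = 0.188), and its sign turned when FPKM were rescaled to a common sum (0.01). These were 3 genes higher and 3 lower, where 65.4% of tested genes were called, 26.5% as higher and 38.9% as lower. The higher share of all calls was 52.5% with a common sum and 53.4% by quantile normalization, against 40.5%.

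With Flag-OGT the lines were compared at much lower levels of several genes. For SPP1, CD44 and ANPEP, all under 0.5 FPKM there, the added 1 FPKM shrinks any gap, and with 0.1 FPKM added the CD44 gap was 0.82 in Flag-OGT and 0.81 in control libraries. CD24 was lower in MHCC-97H Flag-OGT than in MHCC-97L Flag-OGT by 0.42 on the log2 scale (-0.42 ± 0.09 SE; limma, adjusted p = 1.4e-03), as was CD47 (-0.46 ± 0.08, adjusted p = 7.7e-04), while SOX9 (0.47 ± 0.08, adjusted p = 3.9e-04) and ALCAM (0.29 ± 0.07, adjusted p = 4.1e-03) were higher. SPP1, CD44 and ANPEP were not called. Their differences were -0.11 (95% interval from -0.24 to 0.01, adjusted p = 0.102), 0.17 (0.01 to 0.34, adjusted p = 0.0589) and -0.13 (-0.30 to 0.05, adjusted p = 0.178). With 0.1 FPKM added, SPP1 (-0.67, adjusted p = 1.0e-03) and CD44 (adjusted p = 0.0195) were called, and ANPEP was not (-0.53, adjusted p = 0.0607). Of all tested genes 69.7% were called in this comparison, 33.6% as higher and 36.1% as lower, and rescaling to a common sum moved the higher share of calls to 62.6%, against 48.2%. These values stand beside the correlations above, in which Flag-OGT libraries of the lines resembled each other across the tested genes.

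The order of the groups differed between the genes. From high to low it was MHCC-97L control, MHCC-97H control, MHCC-97L Flag-OGT and MHCC-97H Flag-OGT for SPP1, with the Flag-OGT groups not called different. For CD44 and ANPEP the MHCC-97H controls came first and the MHCC-97L controls next, and the Flag-OGT groups were not called different. For CD24 the order was MHCC-97L control, MHCC-97L Flag-OGT, MHCC-97H control and MHCC-97H Flag-OGT, and the last pair overlapped. SOX9 ran from MHCC-97L control through MHCC-97H Flag-OGT and MHCC-97H control to MHCC-97L Flag-OGT, and the last pair, close but not overlapping, was not compared by a test. ALCAM ran from MHCC-97L control and MHCC-97H control, not called different, to MHCC-97H Flag-OGT and MHCC-97L Flag-OGT. CD47 ran from MHCC-97H control and MHCC-97L Flag-OGT, whose ranges overlapped, to MHCC-97L control and MHCC-97H Flag-OGT.

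For each marker gene the pair of genes with the most similar pattern was taken by the root-mean-square difference of centred log2(FPKM + 1) values over the 8 libraries, which share 4 groups, so that likeness mainly reflects group means. SPP1 was nearest to CEACAM6 (0.20) and ALDH3A1 (0.24). CEACAM6, an adhesion molecule of epithelial cells, averaged 0.070 FPKM in MHCC-97H Flag-OGT against 183 in control, and 0.10 in MHCC-97L Flag-OGT against 280 in control. CD44 was nearest to MLPH (0.19) and FOSL1 (0.23), and FOSL1, a subunit of the AP-1 transcription factor, averaged 0.71 FPKM in MHCC-97H Flag-OGT against 190 in control. ANPEP was nearest to S100A2 (0.12) and DHRS9 (0.14). CD24 was nearest to CST1 (0.27) and CYP2B6 (0.31), which averaged 45.5 and 27.5 FPKM in MHCC-97L control and under 0.5 FPKM in each other group. SOX9 was nearest to EDEM1 (0.08) and ABCG1 (0.16), ALCAM to HIPK2 (0.04) and ITPRIPL2 (0.07), and CD47 to ZNF107 and FAM98A (0.06 each). The genes of small range, ALCAM and CD47, have near neighbours by construction.

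For each list below, the shares of all tested genes called were 48.2% higher and 36.3% lower in MHCC-97H. In MHCC-97L these shares were 50.1% and 34.7%. Among 16 other markers of liver cancer stem cells, 12 were tested. In MHCC-97H 3 were called higher and 7 lower, in MHCC-97L 2 and 6, with medians of -1.36 and -0.40. With a minimum mean of 2 FPKM 0 were called higher in either line, and without the second MHCC-97L control library 4 were called higher in MHCC-97L. ALDH1A1, a retinal dehydrogenase, fell furthest, with 0.46 and 0.58 FPKM in MHCC-97H Flag-OGT against 686 and 747 in control, and 0.78 and 0.44 FPKM in MHCC-97L Flag-OGT against 900 and 882 in control. KRT19, a keratin of bile duct cells, had 0.17 and 0.20 FPKM in MHCC-97H Flag-OGT against 362 and 316 in control, and 0.58 and 0.26 FPKM in MHCC-97L Flag-OGT against 333 and 353 in control. Their log2 fold changes were -8.88 and -9.12 for ALDH1A1 and -8.16 and -7.93 for KRT19 in MHCC-97H and MHCC-97L (limma, highest adjusted p = 2.2e-12). In the other direction, KIT, a receptor tyrosine kinase, rose in both lines. It had 2.58 and 2.87 FPKM in MHCC-97H Flag-OGT and was listed at 0 in both controls, and it had 1.5 and 1.59 FPKM in MHCC-97L Flag-OGT against 0.02 in both controls. CACNA2D1, a calcium channel subunit, rose by 0.77 and 1.17 on the log2 scale (adjusted p = 2.5e-06 and 9.1e-08). The markers thus did not move as a block, and falls of the abundant ones stood beside rises of low ones.

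Of 13 integrin subunits and modifiers 7 were tested, and 1 rose and 6 fell in each line, with medians of -2.47 and -2.36. Without the filter on low levels 4 were called higher in each line. MMP7, a protease that cleaves osteopontin, was listed at 0 in both MHCC-97H Flag-OGT libraries against 41.2 and 41.8 FPKM in control, and had 0.10 and 0.050 FPKM in MHCC-97L Flag-OGT against 199 and 197 in control. TGM2, a transglutaminase that crosslinks it, had 1.10 and 1.05 FPKM in MHCC-97H Flag-OGT against 94.8 and 94.5 in control (-5.53 ± 0.06 SE; limma, adjusted p = 9.7e-13), and fell in MHCC-97L too (-4.68 ± 0.06, adjusted p = 2.4e-12). FAM20C, the kinase that phosphorylates osteopontin, rose to 7.67 and 7.90 FPKM in MHCC-97H Flag-OGT against 0.12 and 0.14 in control, and to 6.76 and 7.09 FPKM in MHCC-97L Flag-OGT against 3.03 and 2.81 in control. MMP7 was thus highest where SPP1 was highest, in MHCC-97L control.

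Of 18 genes of hyaluronan turnover and CD44 handling 16 were tested. Rises numbered 4 in MHCC-97H and 3 in MHCC-97L, and falls 10 and 9, with medians of -1.49 and -0.29. CEMIP, which takes part in hyaluronan breakdown, had 0.060 and 0.090 FPKM in MHCC-97H Flag-OGT against 19.9 and 20.6 in control (-4.31 ± 0.07 SE; limma, adjusted p = 4.4e-12). MMP14, a membrane protease that sheds CD44, fell by 3.54 on the log2 scale in MHCC-97H (-3.54 ± 0.09, adjusted p = 9.0e-11). In MHCC-97L the lowest changes were those of SRGN, a proteoglycan ligand of CD44 (-2.86 ± 0.09, adjusted p = 7.9e-10), and of MSN, the moesin gene whose product ties CD44 to actin (-2.62 ± 0.05, adjusted p = 2.3e-11). MSN still had 38.7 and 38.5 FPKM in MHCC-97L Flag-OGT against 245 and 241 in control. HYAL3, of the hyaluronidase family, rose in both lines, with 7.14 and 7.77 FPKM in MHCC-97H Flag-OGT against 2.32 and 2.41 in control. ADAM17, a sheddase, rose in MHCC-97H (0.70 ± 0.07, adjusted p = 7.0e-06), and NF2, the merlin gene, in MHCC-97L (1.35 ± 0.05, adjusted p = 4.3e-09).

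Of 7 ligands and modifiers of CD47 4 were tested, of which 1 was called higher and 2 lower in MHCC-97H, against 1 and 3 in MHCC-97L. SIRPA, the receptor for CD47, had 12.2 and 12.6 FPKM in MHCC-97H Flag-OGT against 0.54 and 0.78 in control, and 8.52 and 8.47 FPKM in MHCC-97L Flag-OGT against 12.9 and 13.1 in control. It rose by 3.02 ± 0.08 in MHCC-97H (SE; limma, adjusted p = 1.3e-10) and fell in MHCC-97L (-0.56 ± 0.08, adjusted p = 6.8e-05), the reverse of the directions of CD47. THBS1, thrombospondin, a secreted ligand of CD47, had 0.030 FPKM in both MHCC-97H Flag-OGT libraries against 21.9 and 22.4 in control, and 0.030 and 0.040 FPKM in MHCC-97L Flag-OGT against 5.61 and 5.25 in control. QPCT, a glutaminyl cyclase, fell in both lines (-2.19 and -3.19, adjusted p = 4.4e-09 and 3.1e-10). QPCTL, the cyclase that modifies the SIRPA-binding end of CD47, was higher by 0.27 ± 0.09 in MHCC-97L (adjusted p = 0.0205), a call lost under rescaling to a common sum (0.15, adjusted p = 0.139) and median-of-ratios scaling (0.09, adjusted p = 0.434) and without either first library of that line (0.19 and 0.17).

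Of 4 binding partners of CD24 and ALCAM 2 were tested. L1CAM, an adhesion molecule that binds CD24, fell in both lines (-0.60 ± 0.13 and -0.52 ± 0.13 SE; limma, adjusted p = 1.2e-03 and 3.0e-03), at levels of at most 1.40 FPKM. SIGLEC10, the receptor for CD24, had 3.25 and 2.88 FPKM in MHCC-97L Flag-OGT against 1.75 and 2.24 in control (0.44 ± 0.10, adjusted p = 1.6e-03), while in MHCC-97H it was not called (0.13, adjusted p = 0.229).

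Of 8 ectopeptidases and related aminopeptidases beside ANPEP 4 were tested, and all 4 fell in both lines, with medians of -1.29 and -1.21. Of all tested genes 36.3% were called lower in MHCC-97H and 34.7% in MHCC-97L. DPP4, a dipeptidyl peptidase of the cell surface, had 0.49 and 0.46 FPKM in MHCC-97H Flag-OGT against 13.7 and 15.6 in control, and 0.030 and 0.050 FPKM in MHCC-97L Flag-OGT against 16.6 and 16.8 in control (limma, adjusted p = 4.3e-11 and 1.5e-11). ERAP1 and ERAP2, aminopeptidases of the endoplasmic reticulum, fell less (ERAP1 -1.55 ± 0.08 in MHCC-97H, ERAP2 -1.21 ± 0.07 in MHCC-97L; SE, adjusted p = 2.0e-08 and 7.1e-08). With a minimum mean of 2 FPKM 2 falls were called in each line, and with no filter 4 genes of the list were called higher in each.

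Of 15 biliary and progenitor genes around SOX9, SPP1 and KRT19 among them, 11 were tested. The calls were 2 higher and 8 lower in MHCC-97H, and 3 higher and 7 lower in MHCC-97L, with medians of -1.49 and -1.58. With no filter 4 were called higher in MHCC-97H and 5 in MHCC-97L. NOTCH2, a receptor of bile duct formation, had 20.0 FPKM in both MHCC-97H Flag-OGT libraries against 3.45 and 3.69 in control, and 6.36 and 6.23 FPKM in MHCC-97L Flag-OGT against 2.76 and 2.33 in control (2.20 ± 0.08 and 1.04 ± 0.08 SE; limma, adjusted p = 1.0e-09 and 3.8e-07). ONECUT2, a transcription factor of the same lineage, rose by 0.60 and 0.61 (adjusted p = 1.6e-05 and 1.5e-05). The lists were described by their counts and medians and not tested as sets. Some list genes, such as KRT19, CEMIP, MMP7, THBS1 and DPP4, had means under 0.5 FPKM in both Flag-OGT groups. Such genes passed the filter only through the controls, so that they fell follows in part from the filter. KIT passed it only through the Flag-OGT groups, and its rise is limited in the same way.

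**Figure D4:**
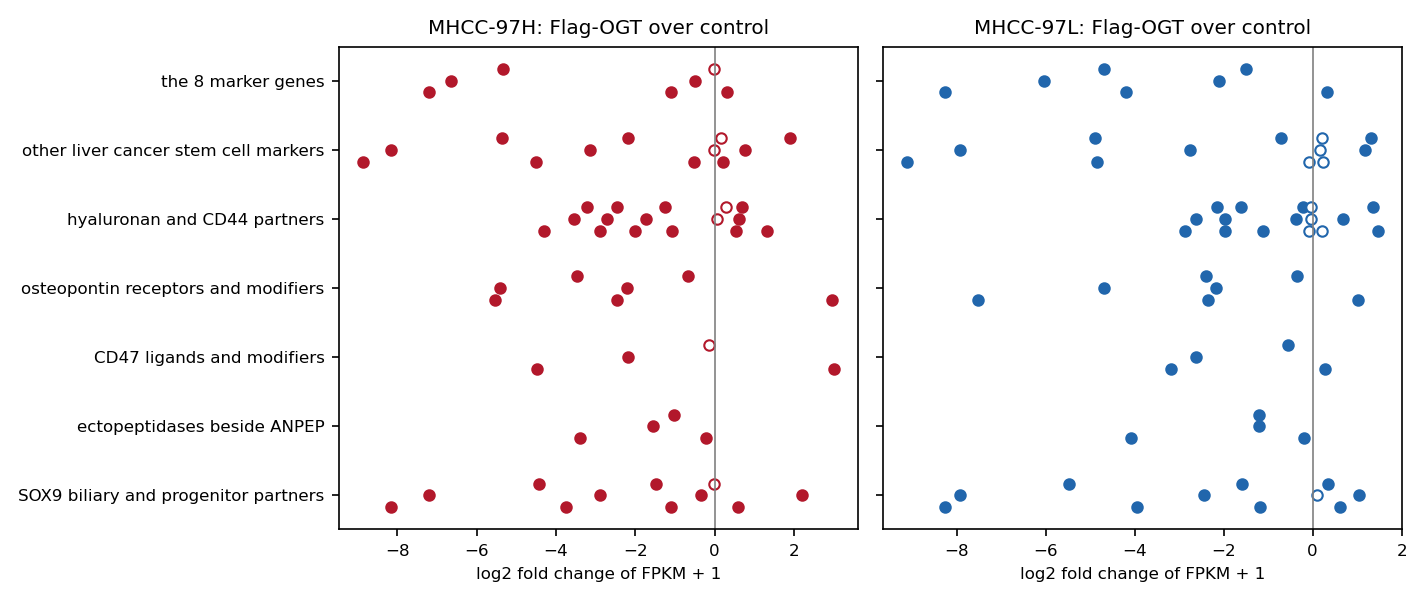
Fold changes of Flag-OGT over control on the log2(FPKM + 1) scale (x axis) of the tested genes of 7 lists, in MHCC-97H (left) and MHCC-97L (right); 1 point is 1 gene, filled where limma called it at an adjusted p under 0.05. Most filled points of each plotted list lie below 0, with a few rises such as SIRPA at 3.02 and FAM20C at 2.96 in MHCC-97H.

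Markers of other cells moved with Flag-OGT beside the marker genes. Of 11 tested hepatocyte markers 10 fell in MHCC-97H and 11 in MHCC-97L, with ITIH2 at -6.21 in MHCC-97H and APOH at -5.53 in MHCC-97L. Most of them, ITIH2, APOH, ALB, AMBP, TF, SERPINA1, FGB and HNF4A, had means under 0.5 FPKM in both Flag-OGT groups. These passed the filter only through the controls, so that they fell follows in part from the filter. Of 9 macrophage and leukocyte markers 3 were tested, and their summed level was 2.85 to 3.10 FPKM in MHCC-97H Flag-OGT against 80.3 to 82.5 in control, and 7.96 to 8.75 in MHCC-97L Flag-OGT against 69.1 to 69.9 in control. CD68, a lysosomal protein, made up most of this sum in the controls, with 79.8 and 77.5 FPKM in MHCC-97H and 63.7 and 63.4 in MHCC-97L, and AIF1 was listed at 0 in all 8 libraries. The endothelial sum was 0.66 to 0.83 FPKM in MHCC-97H Flag-OGT against 33.5 to 33.7 in control, and 1.48 to 1.57 in MHCC-97L Flag-OGT against 44.1 to 46.4 in control, mostly from ESAM. The fibroblast sum was 19.7 to 19.9 FPKM in MHCC-97H Flag-OGT against 9.06 to 12.2 in control, and 14.6 to 15.4 in MHCC-97L Flag-OGT against 4.52 to 5.28 in control, with ACTA2 and COL1A1 higher, LUM lower and FAP listed at 0 throughout. Of 9 tested nephric genes 7 were higher and 2 lower in MHCC-97H, and 5 higher and 2 lower in MHCC-97L, led by CITED1 with 241 and 227 FPKM in MHCC-97H Flag-OGT against 0.57 and 0.68 in control. In these other lists PECAM1, KDR, ITGAM, LUM, PAX8 and OSR1 likewise passed the filter only through the controls. PAX2, SIX2, EYA1, ACTA2 and COL1A1 passed it only through the Flag-OGT groups, so their rises are limited in the same way. The part of the markers of other cells in the results on SPP1, CD44, ANPEP and the other genes was not tested.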

How the data were processed

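RNA of 8 libraries in 4 groups of 2 was measured. Trizol was used to extract total RNA, per the labels' protocols. The authors deposited FPKM values per gene, rounded to 2 decimals. Per the submitters' processing notes, the tools were RSEM 1.2.4, HISAT2 2.1.0, DESeq2 1.18.1 and Bowtie2, and the step that made the FPKM is not stated. The table held 18928 features. The 26 whose symbols had been turned into dates were left out, and 55 with a number in place of a symbol were tested but not named. Read depth is unknown. Library sums ran from 510449 to 613101 FPKM, and 11044 to 11958 genes per library reached 1 FPKM.

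Genes with a mean of at least 0.5 FPKM, 13553 in number, were fitted as log2(FPKM + 1) in R 4.3.3 with limma 3.58.1. The fit had 4 group means, 4 residual degrees of freedom and moderated variances that follow the mean level. Calls were made at a Benjamini-Hochberg adjusted p under 0.05, with the adjustment over every gene tested in each of 5 comparisons. The fit was run on simulated data with normal noise and known shifts in a small share of expressed genes. That run checks the code and does not cover genes near 0 or changes in most genes. Other steps used Python 3.11.15 with matplotlib 3.10.9, numpy 2.4.6, pandas 2.3.3 and scipy 1.17.1. Per list and line, up to 2 called genes with the highest and up to 2 with the lowest log2 fold change were named, and for each marker gene its 2 nearest genes. Other genes, such as HNF4A, TTR, AIF1 and FAP, were chosen after their values were seen. The marker genes and the lists were chosen with earlier results of these data known. Promoter sequences came from RefSeq (GRCh38.p14), and no coordinates were taken from the deposited table.

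Alternatives were a constant of 0.1, no filter, a minimum mean of 2 FPKM, quantile normalization, a common library sum, median-of-ratios scaling, no variance trend, the groups compared alone, each library left out and a replicate block.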

Additional observations from a re-analysis of the deposited data

Results flagged for a closer look

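The change with Flag-OGT in MHCC-97H minus that in MHCC-97L was past the threshold for each tested marker gene, by a test of the difference itself (limma, adjusted over all tested genes). On the log2(FPKM + 1) scale it was 4.66 for CD24, 2.42 for SOX9, 1.05 for SPP1, 0.40 for ALCAM, -0.63 for CD44, -0.81 for CD47 and -1.15 for ANPEP. For CD24, SOX9 and SPP1 the MHCC-97L controls lay above the MHCC-97H controls. The control gaps of CD24 and SOX9, -5.09 and -1.96, exceeded in size those between the Flag-OGT groups, -0.42 and 0.47. SPP1, CD44 and ANPEP stood near 0 with Flag-OGT in both lines, so that on this scale their differences largely restate the gaps between the controls. OGT, the introduced gene, differed by 0.57 (adjusted p = 1.9e-04). SIRPA, the receptor for CD47, differed by 3.57 (adjusted p = 1.6e-08), with a rise of 3.02 in MHCC-97H and a change of -0.56 in MHCC-97L. With 63.3% of all tested genes past the same threshold, such differences were common in these libraries.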

How the results depend on the processing

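Of 588 fold changes of marker genes under alternatives, 570 kept their direction and their side of the threshold, 5 lost and 9 gained a call, and 4 changed sign. The sign changes were CD44 in the difference between lines with a constant of 0.1 (0.01), ALCAM between the control lines with a common sum (0.01), and CD24 in MHCC-97H, which was not called and ran from -0.10 to 0.06 with 1 library left out. No marker gene was called higher in MHCC-97H by quantile normalization (0, through SOX9), and none in MHCC-97L by median-of-ratios scaling (0, through CD47), where leaving out 1 library gave 0 to 1. For CD44, SPP1 and ANPEP the size of the fall rests on the constant. ANPEP fell by 7.62 and CD44 by 8.49 in MHCC-97H with 0.1 FPKM added. Between the Flag-OGT lines CD44 was also called under all 3 scalings and without the first MHCC-97L Flag-OGT library (0.27), ANPEP without the second (-0.21) and SPP1 with the groups compared alone. Deviations of same-numbered libraries from their group means correlated at -0.206 to 0.309 between groups. With 2 libraries a group this cannot settle whether replicate numbers pair the libraries. The replicate block called 11436 genes in MHCC-97H, 11473 in MHCC-97L and 8553 for the difference, against 11460, 11494 and 8576, and changed no call of a marker gene. Of 2016 counts of list genes, 169 moved by over 1.5 times. Without the filter 4 osteopontin partners and 4 ectopeptidases were called higher in each line, and with a minimum mean of 2 FPKM 2 ectopeptidases fell. Depth is unknown, and levels under about 0.1 FPKM are limited by rounding.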
